A study of Homo sapiens with 96 samples.

Results

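The genes described here are 10 receptor genes: the receptor tyrosine kinase genes KIT, FLT3, CSF1R, MERTK and ROS1, and the cytokine receptor genes CSF2RB, CSF3R, IL3RA, IL6R and EPOR. They were chosen by name and are 10 of the 60552 gene rows of a read count table of 6 human acute myeloid leukaemia (AML) cell lines. The lines were HL60, Kasumi1, MOLM13, MV411, OCIAML3 and THP1. Cells of each line received 552A, ATRA, Combo or DMSO for 2 or 4 days. ATRA is all-trans retinoic acid, the ligand of the retinoic acid receptors, given at 100 nM. The label 552A was read as 1 µM GSK2879552, an inhibitor of the histone demethylase LSD1, because it was the arm of the treatment protocol that no other label took. Combo was both drugs at these doses, and the vehicle was 0.1% DMSO. With 2 replicates in each of these 48 groups there were 96 libraries.

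Myeloid growth factor receptors carry a signal from a secreted ligand to the cell. Receptor tyrosine kinases such as KIT, FLT3 and CSF1R are enzymes in their own right, whereas cytokine receptors such as CSF2RB, CSF3R, IL6R and EPOR signal through JAK kinases that bind to them or to a partner chain. KIT and FLT3 mark blood stem and progenitor cells and are lost in most mature myeloid cells, while CSF1R, MERTK and CSF3R are known from monocytes, macrophages and neutrophils. In AML, FLT3 and KIT are among the receptors that are often mutated: MOLM13 and MV411 are known to carry an internal tandem duplication of FLT3, and Kasumi1 an activating KIT mutation.

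Total counts per library ran from 12.82 M to 40.95 M, with a median of 22.88 M. RUNX1T1, the partner of the RUNX1 fusion that defines Kasumi1, had 118 to 154 CPM (counts scaled to the size of the library) over the Kasumi1 group means and at most 0.482 CPM in any other line. All 6 myeloid blast markers reached 1 CPM in every DMSO group. Each line is 1 established cell line, and no label says whether its replicates were grown as separate cultures. The p-values within a line thus reflect the scatter of the libraries at hand, and that scatter may be technical. In 5 libraries, genes shifted with their GC content more than in the rest of their line: replicate 1 of Kasumi1 Combo day 4 and MOLM13 552A day 4, and replicate 2 of MV411 Combo day 4, OCIAML3 552A day 2 and THP1 552A day 2. Their slopes ran from -1.04 to -0.52 log2 units per 10% GC, against -0.61 to 0.41 in the other libraries, so no cut-off in slope separates the sets. Steep slopes outside the 5 were those of replicate 2 of MV411 DMSO day 4 (-0.608), OCIAML3 Combo day 4 (-0.567) and HL60 ATRA day 4 (-0.534). The first is a control of every MV411 change from DMSO at day 4. Replicate 1 of HL60 ATRA day 4 had a slope of 0.396, so that pair differed in GC trend. Where a call described here ended without one of the 5 libraries, this is said beside it. In bulk RNA, fewer cells of a type and less RNA per cell cannot be told apart.

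In GRCh38 with GENCODE release 29, KIT (ENSG00000157404.15) lies at chr4:54657918-54740715 on the plus strand. FLT3 lies at chr13:28003274-28100592 and CSF1R at chr5:150053291-150113372, both on the minus strand. MERTK lies at chr2:111898479-112029561 on the plus strand and ROS1 at chr6:117288300-117425855 on the minus strand. The cytokine receptor genes are CSF2RB (chr22:36913628-36940449, plus strand), CSF3R (chr1:36466043-36483278, minus strand), IL6R (chr1:154405193-154469450, plus strand), EPOR (chr19:11377205-11384342, minus strand) and IL3RA (chrX:1336616-1382689, plus strand). EPOR shares exon sequence with RGL3 on the same strand, and ROS1 with AL132671.2, which held 4 counts in all. The sources used here do not say whether the counting used the strand. Reads of EPOR and RGL3 may be mixed.

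Promoter windows were read for the receptors. RefSeq (GRCh38.p14) held a transcription start for 9 of the 10 genes, all but CSF2RB. The 250 bases before the start are shown for KIT, FLT3, MERTK and ROS1, 5′ to 3′ on the strand of the gene, because much of what follows is about these 4 genes. Capitals mark matches, on either strand, to the letters searched: GAGGAA for ETS factors such as PU.1, TGTGGT for RUNX factors, AGGTCA for the half-site of the retinoic acid receptor, AAATCA for GFI1, AGATAA for GATA factors and TTGCNNAA for C/EBP factors. None of these letters overlapped within the 4 windows.
KIT, chr4:54657707-54657956, plus strand: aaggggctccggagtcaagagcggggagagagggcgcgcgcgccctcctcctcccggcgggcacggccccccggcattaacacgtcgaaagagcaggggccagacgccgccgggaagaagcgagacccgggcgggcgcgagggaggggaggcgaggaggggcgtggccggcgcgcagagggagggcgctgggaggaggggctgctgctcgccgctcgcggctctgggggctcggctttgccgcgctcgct
FLT3, chr13:28100577-28100826, minus strand: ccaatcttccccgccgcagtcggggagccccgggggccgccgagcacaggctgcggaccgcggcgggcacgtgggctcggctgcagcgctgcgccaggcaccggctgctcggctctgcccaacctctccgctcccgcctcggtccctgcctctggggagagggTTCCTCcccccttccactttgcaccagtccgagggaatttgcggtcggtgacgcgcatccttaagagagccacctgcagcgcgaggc
MERTK, chr2:111898357-111898606, plus strand: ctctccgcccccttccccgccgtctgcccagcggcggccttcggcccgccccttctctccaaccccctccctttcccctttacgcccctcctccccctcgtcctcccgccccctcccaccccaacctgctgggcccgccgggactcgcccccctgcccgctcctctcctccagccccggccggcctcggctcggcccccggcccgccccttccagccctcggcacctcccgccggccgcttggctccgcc
ROS1, chr6:117425943-117426192, minus strand: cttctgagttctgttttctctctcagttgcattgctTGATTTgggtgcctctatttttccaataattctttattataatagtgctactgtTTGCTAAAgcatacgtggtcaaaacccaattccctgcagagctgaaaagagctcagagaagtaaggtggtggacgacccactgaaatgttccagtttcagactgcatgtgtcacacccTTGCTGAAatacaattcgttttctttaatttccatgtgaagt
The windows of KIT, FLT3 and MERTK held 76.4, 72 and 78.8% GC, against 40.0% for ROS1. No match was found in KIT or MERTK, which says only that these letters are not in this window. FLT3 held 1 GAGGAA, read on the opposite strand as TTCCTC, 87 to 82 bases before the start. ROS1 held TGATTT, the GFI1 letters on the opposite strand, 214 to 209 bases before the start, and the C/EBP letters at 160 to 153 and at 42 to 35 bases. Of 27305 promoters of the same length, 23.4% held GAGGAA, 10.9% TGTGGT, 12.1% AGGTCA, 11.7% AAATCA, 9.37% AGATAA and 9.13% TTGCNNAA. A match describes the letters only and is no evidence of binding.

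With DMSO, each line had its own receptor set. Levels are given as RPKM, which is CPM per kilobase of exon, averaged over 4 DMSO libraries per line. KIT, the receptor of stem cell factor, spanned the widest range, with 327 RPKM in Kasumi1, 4.16 in THP1, 0.355 in MV411, 0.194 in HL60, 0.0699 in MOLM13 and 0.00612 in OCIAML3. Every step in that order was called by edgeR's quasi-likelihood test (adjusted p 2.85e-17 to 0.0112). FLT3, the receptor of FLT3 ligand, was highest in the lines known for its duplication, at 209 RPKM in MV411 and 99.8 in MOLM13. THP1 followed with 44.9 RPKM, OCIAML3 with 25.4, Kasumi1 with 19.3 and HL60 with 3.64, and all 5 steps were called. The M-CSF receptor gene CSF1R had 27.6 RPKM in THP1, 10.9 in MV411, 6.71 in MOLM13, 2.03 in Kasumi1, 1.65 in OCIAML3 and 0.136 in HL60. Its levels in Kasumi1 and OCIAML3 did not differ beyond their spread (adjusted p = 0.151).

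MERTK, which binds GAS6 and protein S and takes part in the uptake of dead cells, was low everywhere with DMSO. It ran from 0.0471 RPKM in MV411 to 0.726 in Kasumi1, with HL60, MOLM13 and MV411 not told apart. ROS1, a kinase known in cancer from its fusions, had 1.98 RPKM in THP1, 1.04 in OCIAML3, 0.280 in MV411 and 0.170 in MOLM13, and the difference between MV411 and MOLM13 was not called (adjusted p = 0.0520). It had 0 counts in every library of HL60 and Kasumi1, where 3 counts over a pair of libraries allow at most 0.0792 CPM. CSF3R, the receptor of G-CSF, ran from 5.50 RPKM in HL60 to 62.1 in Kasumi1. IL6R, the ligand-binding chain for interleukin 6, ran from 1.12 RPKM in Kasumi1 to 108 in THP1. CSF2RB, the shared beta chain of the GM-CSF, IL-3 and IL-5 receptors, was the most even with 4.00 to 7.99 RPKM, and EPOR, the erythropoietin receptor gene, had 2.10 to 6.23 RPKM. The F test over the lines called all 9 genes with counts, but it also called 92.8% of all genes tested. In the vehicle cultures, 1 of 52 tests of a member in a line was called lower at day 4 than at day 2, and none higher. Over all tests 0.339% were called lower. Of the 489 calls of any gene in either direction, 479 lay in MOLM13, where 2.03% of all tests were lower. The member called was IL6R, also in MOLM13 (log2 -0.78 ± 0.16 SE, adjusted p = 0.0271). Its call ended with upper quartile normalisation (-0.60, adjusted p = 0.0762) and when any of 5 of the 16 libraries was left out.

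**Figure D1:**
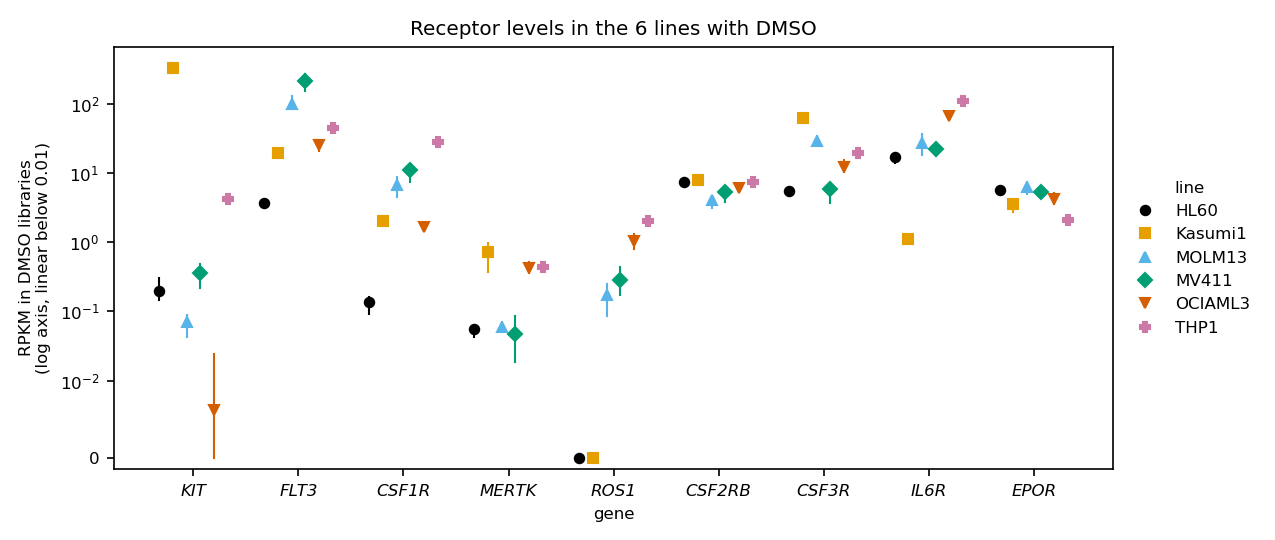
Receptor levels in RPKM (vertical log axis, linear below 0.01) for 9 genes in the DMSO libraries of 6 lines. Symbols are means of 4 libraries and bars span the lowest to the highest library. KIT spans the widest range, from 0.00612 RPKM in OCIAML3 to 327 in Kasumi1, while CSF2RB and EPOR lie close together in all lines.

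IL3RA, the gene of the interleukin 3 receptor alpha chain that many AML blasts carry, had 0 counts in all 96 libraries. The same held for all 50 genes on the X copy of the pseudoautosomal regions and for their 50 Y copies in the table. The zero is thus shared by every gene of that kind in the files, and no statement on the expression of IL3RA is made. The other 9 genes passed the filter on low counts in at least 1 line, and ROS1 in 4 lines, which gave 52 tests of a member in a line per comparison. KIT in OCIAML3 passed it with no more than 10 counts in any library.

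At day 4 each treatment changed some of the receptors in some lines. 552A changed 11 of the 52 member and line pairs, 4 higher and 7 lower, against 2.7% and 1.01% of all tests over the 6 lines. ATRA changed 24 pairs, 19 higher and 5 lower, against 8.52% and 7.22% of all tests. Combo changed 32 pairs, 18 higher and 14 lower, against 12% and 9.94% of all tests. Over all tests, too, calls were fewest with 552A (3.71%), then ATRA (15.7%) and Combo (22%), and no difference between treatments in the share called was tested. The median log2 change over the pairs was -0.08 with 552A, 0.49 with ATRA and 0.05 with Combo, beside -0.02, -0.01 and -0.01 over all genes. Of the 67 calls, 42 were also made under every alternative and with each library left out in turn. The 3 treatments were compared with the same DMSO libraries, so their values are not independent of each other.

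Taken over lines, 3 receptors were called at day 4 (n = 6 lines in the fit). Only 4 of these lines had ROS1 counts, so its changes rest on those 4. With 552A, ROS1 fell (log2 -4.52 ± 0.74 SE, adjusted p = 0.0186), 1 of 9 members against 0.0138% of all genes called lower. With ATRA, FLT3 (1.25 ± 0.33, adjusted p = 0.0287) and MERTK (3.82 ± 0.71, adjusted p = 0.00576) rose, 2 of 9 members against 4.66% of all genes. With Combo, MERTK rose (3.83 ± 0.71, adjusted p = 0.00126) and ROS1 fell (-5.85 ± 0.81, adjusted p = 0.000654), against 13.5% and 11.7% of all genes called higher and lower. The MERTK calls and the Combo call of ROS1 were made with any line left out. The 552A call of ROS1 ended without MOLM13, MV411, OCIAML3 or THP1 (adjusted p 0.0606 to 0.129), and ROS1 has no counts in the other lines. The ATRA call of FLT3 ended without HL60, MOLM13, OCIAML3 or THP1 (adjusted p 0.0554 to 0.104).

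**Figure D2:**
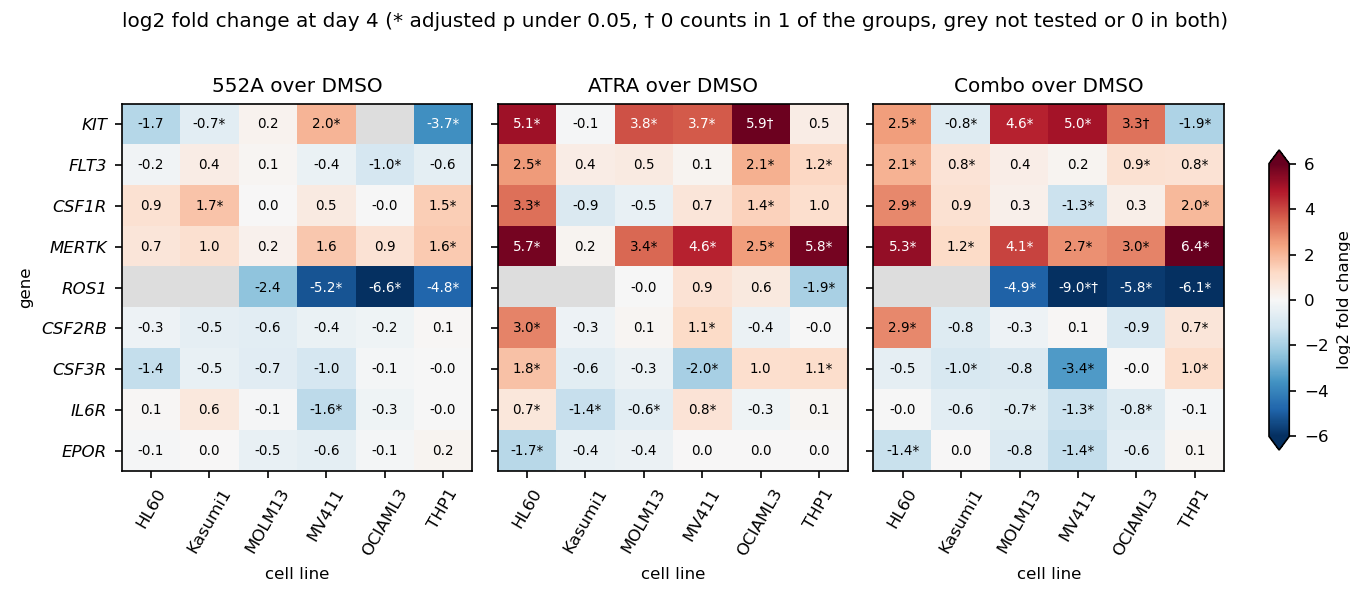
log2 fold changes at day 4 of 552A, ATRA and Combo over DMSO for 9 receptor genes (rows) in 6 lines (columns), from the within-line fits. Stars mark an adjusted p under 0.05, daggers a group with 0 counts, where the fitted value is no bound, and grey a gene not tested or at 0 in both groups. MERTK rises with Combo in all 6 lines and ROS1 falls in all 4 lines that express it, while KIT differs in sign between lines.

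KIT moved in opposite directions in different lines and with different drugs. In THP1 at day 4, KIT had 1.93 and 2.09 CPM with 552A, against 25.0 and 25.9 CPM with DMSO. The 552A libraries lay far below all DMSO libraries of this line, a log2 change of -3.67 ± 0.24 (adjusted p = 4.12e-06), and at day 2 the change was -3.08 (adjusted p = 1.61e-05), and it was still called, at -3.36, without the library that stood apart. With ATRA alone THP1 kept 35.4 and 36.8 CPM of KIT, a log2 change of 0.46 ± 0.21 that was not called (adjusted p = 0.180). With Combo it had 6.40 and 8.06 CPM, a fall of -1.86 ± 0.22 (adjusted p = 4.41e-05). Combo thus lay between 552A and both other groups, and the sum of the single-drug changes gave a lower level than Combo showed: the difference was 1.35 ± 0.31 (adjusted p = 0.0443). That last call ended when any of 12 of the 16 libraries was left out (adjusted p 0.0570 to 0.200), with upper quartile normalisation (adjusted p = 0.0602) and without the filter on low counts (adjusted p = 0.0693).

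HL60, MOLM13 and MV411 started with little KIT and gained it with ATRA. In HL60 at day 4, KIT had 32.6 and 55.3 CPM with ATRA, against 1.70 and 0.820 CPM with DMSO, a rise of 5.07 ± 0.52 on the log2 scale (adjusted p = 1.98e-05). Combo gave 6.45 and 8.43 CPM in HL60, which was higher than DMSO (2.52 ± 0.48, adjusted p = 0.00177) and lower than ATRA (-2.55 ± 0.45, adjusted p = 0.0154). The ATRA, Combo and DMSO libraries did not overlap, and the 552A libraries, at 0.241 and 0.548 CPM, lay below DMSO without a call (adjusted p = 0.351). The call of Combo below ATRA ended without ATRA replicate 2 or either Combo library of day 4.

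In MOLM13 at day 4, KIT had 6.02 and 5.84 CPM with ATRA and 8.98 and 11.5 CPM with Combo, against 0.339 and 0.486 CPM with DMSO. Both rises were called, at 3.82 ± 0.50 (adjusted p = 0.000348) and 4.61 ± 0.50 (adjusted p = 3.48e-05), and 552A gave no call (0.819 and 0.228 CPM, adjusted p = 0.982). MV411 was the line in which 552A alone raised KIT, with 8.61 and 8.29 CPM at day 4, against 2.15 and 1.89 CPM with DMSO (2.02 ± 0.40, adjusted p = 0.0117). This call ended without DMSO day 4 replicate 2 (1.93, adjusted p = 0.0890). ATRA gave 26.4 and 26.2 CPM in MV411 (3.69 ± 0.42, adjusted p = 4.27e-05) and Combo 49.4 and 83.3 CPM (5.01 ± 0.44, adjusted p = 5.17e-06). The upper Combo value came from the library that stood apart, and without it Combo was still called at 4.60. Combo lay above ATRA in MV411 (1.32 ± 0.37, adjusted p = 0.0260), a call that ended without that library (0.87, adjusted p = 0.243) or without either ATRA library of day 4.

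Kasumi1 kept most of its KIT. It had 1308 and 1126 CPM with 552A, 1946 and 1586 CPM with ATRA and 1311 and 924 CPM with Combo at day 4, against 1781 and 1953 CPM with DMSO. The 552A libraries lay below both DMSO libraries (-0.66 ± 0.17, adjusted p = 0.0489), but the call ended when any of 13 of the 16 libraries was left out (adjusted p 0.0524 to 0.395) and with 2 other normalisations (adjusted p = 0.0620 and 0.112). Combo was lower as well (-0.78 ± 0.17, adjusted p = 0.0134, and -1.01 without the library that stood apart), a call that ended without either DMSO library of day 4. OCIAML3 had almost no KIT: 2 and 10 counts with ATRA at day 4 and 1 count in each Combo library, against 0 counts with 552A and with DMSO. No fold is given there, and no call was made. The adjusted p of a difference between lines in the response of KIT was 4.61e-07 for 552A, 3.4e-09 for ATRA and 1.59e-11 for Combo, in tests that called 5.69%, 31.4% and 33.6% of all genes.

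**Figure D3:**
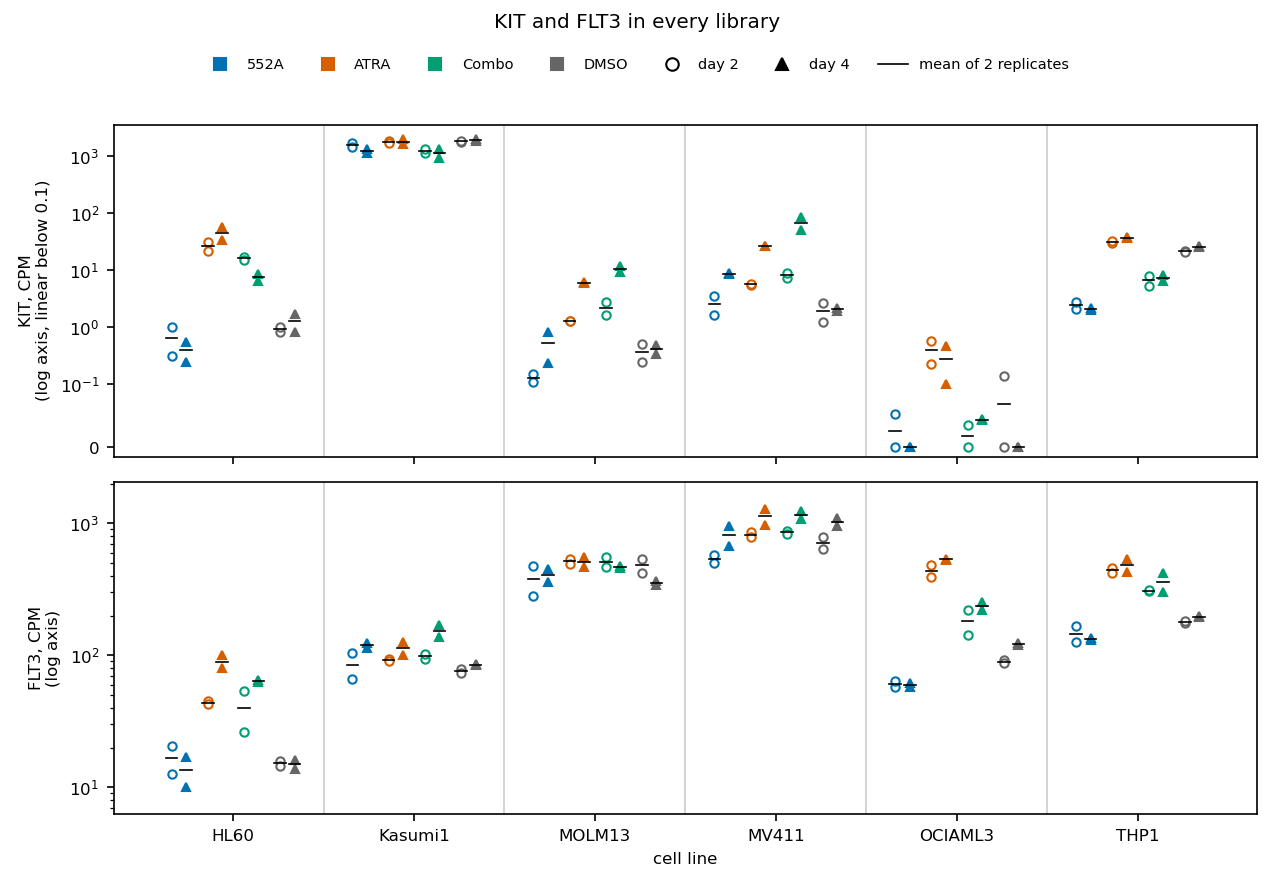
KIT and FLT3 in CPM (vertical log axis, for KIT linear below 0.1) in every library, by line, with 552A, ATRA, Combo and DMSO from left to right. Open circles are day 2, filled triangles day 4 and short lines the mean of 2 replicates. KIT with 552A in THP1 sits between 1.93 and 2.72 CPM, below every other group of that line, and KIT in HL60, MOLM13 and MV411 is highest with ATRA or Combo at day 4.

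FLT3 rose with ATRA in OCIAML3, HL60 and THP1. In OCIAML3 at day 4, FLT3 had 527 and 539 CPM with ATRA, against 119 and 123 CPM with DMSO (2.12 ± 0.19, adjusted p = 3.96e-05). In HL60 it had 79.6 and 99.7 CPM with ATRA, against 16.2 and 13.9 CPM with DMSO (2.54 ± 0.36, adjusted p = 0.000213). In THP1 it had 426 and 532 CPM with ATRA, against 194 and 197 CPM with DMSO (1.24 ± 0.19, adjusted p = 0.000898). In all 3 lines the ATRA libraries lay above the DMSO libraries. In MV411 the ATRA libraries (1285 and 977 CPM) overlapped the DMSO libraries (947 and 1098 CPM). In MOLM13 and Kasumi1 the changes of 0.53 and 0.44 were not called, although the ATRA libraries lay above DMSO there too. MOLM13 had 553 and 467 CPM with ATRA, against 362 and 341 CPM with DMSO. Kasumi1 had 127 and 100 CPM, against 85.0 and 85.3 CPM.

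552A lowered FLT3 in OCIAML3, to 62.1 and 57.5 CPM at day 4, against 119 and 123 CPM with DMSO (-1.01 ± 0.19, adjusted p = 0.0135). The groups did not overlap, but the call ended when any of these 4 libraries was left out (adjusted p 0.0758 to 0.159). Combo in OCIAML3 gave 220 and 254 CPM, above DMSO (0.92 ± 0.19, adjusted p = 0.00699) and below ATRA (-1.20 ± 0.19, adjusted p = 0.00562). The first of these ended without Combo replicate 2 or either DMSO library of day 4, and the second without Combo replicate 1 or either ATRA library. Combo also raised FLT3 in HL60 (2.07 ± 0.35, adjusted p = 0.000821), in THP1 (0.84 ± 0.19, adjusted p = 0.00432) and in Kasumi1 (0.82 ± 0.18, adjusted p = 0.0131). The THP1 call ended without Combo replicate 2 (0.59, adjusted p = 0.0613). The Kasumi1 call ended without the Combo library that stood apart (0.71, adjusted p = 0.0559) and without either DMSO library of day 4. The response to 552A differed between lines (adjusted p = 0.00756), except with upper quartile normalisation (adjusted p = 0.0596), and those to ATRA (adjusted p = 9.52e-08) and Combo (adjusted p = 8.76e-05) did so too.

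At day 4, 552A raised CSF1R in Kasumi1 and THP1. In Kasumi1 it had 30.8 and 40.4 CPM with 552A, against 10.6 and 10.8 CPM with DMSO (1.69 ± 0.33, adjusted p = 0.00856). In THP1 it had 438 and 397 CPM with 552A, against 157 and 143 CPM with DMSO (1.46 ± 0.38, adjusted p = 0.0367). Neither pair of groups overlapped. The Kasumi1 call ended without 552A replicate 2 or either DMSO library of day 4 (adjusted p 0.0672 to 0.0924), and the THP1 call when any of 10 of the 16 libraries was left out (adjusted p 0.0510 to 0.232). Combo in THP1 gave 784 and 424 CPM (1.97 ± 0.38 over DMSO, adjusted p = 0.00166).

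In HL60, CSF1R had 11 and 4.19 CPM with ATRA and 6.35 and 4.76 CPM with Combo at day 4, against 0.813 and 0.683 CPM with DMSO. Both rises were called, at 3.31 ± 0.56 (adjusted p = 0.000776) and 2.86 ± 0.55 (adjusted p = 0.00195). At day 2, HL60 Combo had held 34.9 and 83.2 CPM, which lay above all day 4 libraries of this line; the change from day 2 to day 4 was not tested. In OCIAML3, ATRA gave 20.9 and 22.7 CPM, against 7.52 and 9.24 CPM with DMSO (1.36 ± 0.38, adjusted p = 0.0335), a call that ended when any of these 4 libraries was left out. MV411 went the other way with Combo, at 28.8 and 14.5 CPM, against 66.6 and 37.3 CPM with DMSO (-1.28 ± 0.37, adjusted p = 0.0217). This call ended without the Combo library that stood apart (-0.87, adjusted p = 0.171) or without DMSO replicate 1 (-0.68, adjusted p = 0.268). Combo less the sum of the single-drug changes of CSF1R in MV411 was -2.53 ± 0.52 (adjusted p = 0.0247, and 0.0902 without that library), a call that ended without any of 7 of the 16 libraries.

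MERTK had the largest rises called among the 9 receptors at day 4. In THP1 at day 4, MERTK had 111 and 116 CPM with ATRA and 172 and 188 CPM with Combo, against 2.13 and 1.94 CPM with DMSO. The log2 changes were 5.75 ± 0.20 with ATRA (adjusted p = 1.56e-08) and 6.42 ± 0.20 with Combo (adjusted p = 5.87e-09). 552A alone gave 6.87 and 5.35 CPM in THP1, a smaller rise of 1.57 ± 0.18 (adjusted p = 0.000209). At day 2, 552A also raised MERTK in THP1, to 3.90 and 4.22 CPM, against 2.31 and 1.92 CPM with DMSO (0.97 ± 0.18, adjusted p = 0.00733). That call ended without the 552A library that stood apart (adjusted p = 0.0510) and without DMSO replicate 2 of day 2. Kasumi1 at day 2 had 5.72 and 5.64 CPM with 552A, against 1.76 and 3.32 CPM with DMSO (1.11 ± 0.27, adjusted p = 0.0429), a call that ended without any of 13 of the 16 libraries. At day 4 no 2 of the 4 groups of THP1 overlapped, and Combo lay above ATRA by 0.67 ± 0.16 (adjusted p = 0.0121), a call that ended without either ATRA library, without Combo replicate 2, or without the filter on low counts.

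In HL60 at day 4, MERTK had 16.4 and 15.3 CPM with ATRA and 10.5 and 12.0 CPM with Combo, against 0.296 and 0.273 CPM with DMSO. The changes of 5.74 ± 0.41 and 5.25 ± 0.40 were called with every library left out. At day 2 the same line held 41.1 and 49.6 CPM with ATRA and 44.9 and 64.7 CPM with Combo, so the day 2 libraries lay above those of day 4. MOLM13 rose to 2.57 and 3.33 CPM with ATRA and 3.40 and 5.66 CPM with Combo, against 0.283 and 0.243 CPM with DMSO. OCIAML3 rose to 10.9 and 11.1 CPM with ATRA and 15 and 16.3 CPM with Combo, against 1.67 and 2.13 CPM with DMSO. All 4 changes of these 2 lines were called, with log2 changes of 2.52 to 4.07.

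In MV411, Combo was called lower than ATRA for MERTK. It had 9.69 and 4.87 CPM with ATRA and 1.87 and 2.19 CPM with Combo, against 0.406 and 0.189 CPM with DMSO. Both lay above DMSO (4.59 ± 0.59 and 2.74 ± 0.61), and Combo lay below ATRA (-1.86 ± 0.49, adjusted p = 0.0198) and below the sum of the single drugs (-3.49 ± 0.81, adjusted p = 0.0410). Without the Combo library that stood apart, Combo was still called above DMSO, at 2.64. The calls against ATRA and against the sum ended without that library (adjusted p = 0.0832 and 0.0956), the first also without ATRA replicate 1 or Combo replicate 1 and the second without any of 12 of the 16 libraries. In HL60 Combo over ATRA was -0.49 and not called (adjusted p = 0.694). Kasumi1, which had the most MERTK with DMSO, gave 5.0 and 4.44 CPM with ATRA, overlapping DMSO at 4.02 and 4.55 CPM. With Combo Kasumi1 had 9.43 and 10.2 CPM of MERTK (1.17 ± 0.26 over DMSO, adjusted p = 0.0144, and 1.27, adjusted p = 0.0226, without the library that stood apart), a call that ended without either DMSO library of day 4. The response of MERTK differed between lines with ATRA (adjusted p = 9.22e-10) and Combo (adjusted p = 7.3e-09), and no difference was called with 552A (adjusted p = 0.80).

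552A lowered ROS1 in THP1, OCIAML3 and MV411. In THP1 at day 4 it had 0.691 and 0.390 CPM with 552A and 0.161 and 0.296 CPM with Combo, against 13.8 and 15.8 CPM with DMSO. These were 30 and 9 counts over the pairs of libraries, against 541 with DMSO, or 3.66% (95% exact counting interval 2.44 to 5.28%) and 1.47% (0.666 to 2.80%) of the DMSO level. Both falls were called (adjusted p = 9.46e-06 and 5.04e-07). In OCIAML3, ROS1 had 4 counts with 552A and 6 with Combo over the pairs, against 408 with DMSO. That is 0.959% (0.260 to 2.47%) and 1.84% (0.673 to 4.05%) of the DMSO level, and both falls were called (adjusted p = 5.4e-05 and 1.91e-05). In MV411, 552A left 3 counts against 139 with DMSO, or 2.59% (0.527 to 7.72%). MV411 Combo had 0 counts against the same 139, or 0% (0 to 3.53%) of the DMSO level. These intervals cover counting error only.

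MOLM13, with the least ROS1 of the 4 lines, had 0.109 and 0.266 CPM with 552A and 0 and 0.0651 CPM with Combo, against 0.678 and 1.40 CPM with DMSO. The 552A libraries, 1 of which stood apart, lay below DMSO without a call (-2.41 ± 0.82, adjusted p = 0.263), with 9 counts against 35, or 19.7% (8.31 to 41.7%) of the DMSO level. The Combo fall was called (adjusted p = 0.0154), on 1 count against 35, and ended without either Combo library or without DMSO replicate 2 of day 4. ATRA did not share this pattern: it lowered ROS1 in THP1 to 3.07 and 4.89 CPM (-1.94 ± 0.30, adjusted p = 0.000920), while MV411 had 5.57 and 4.32 CPM and OCIAML3 10.4 and 11.4 CPM, above DMSO at 1.99 and 3.41 CPM and at 6.21 and 8.02 CPM without a call (adjusted p = 0.0739 and 0.270). Combo lay below ATRA in all 4 lines (adjusted p 1.46e-05 to 0.0321), and the MOLM13 call ended without any of its ATRA or Combo libraries of day 4. The fall with 552A was smaller at day 2 over the lines, at -3.21 ± 0.51 (adjusted p = 0.00736), and ended without MOLM13. A test of day 4 against day 2 was not made.

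**Figure D4:**
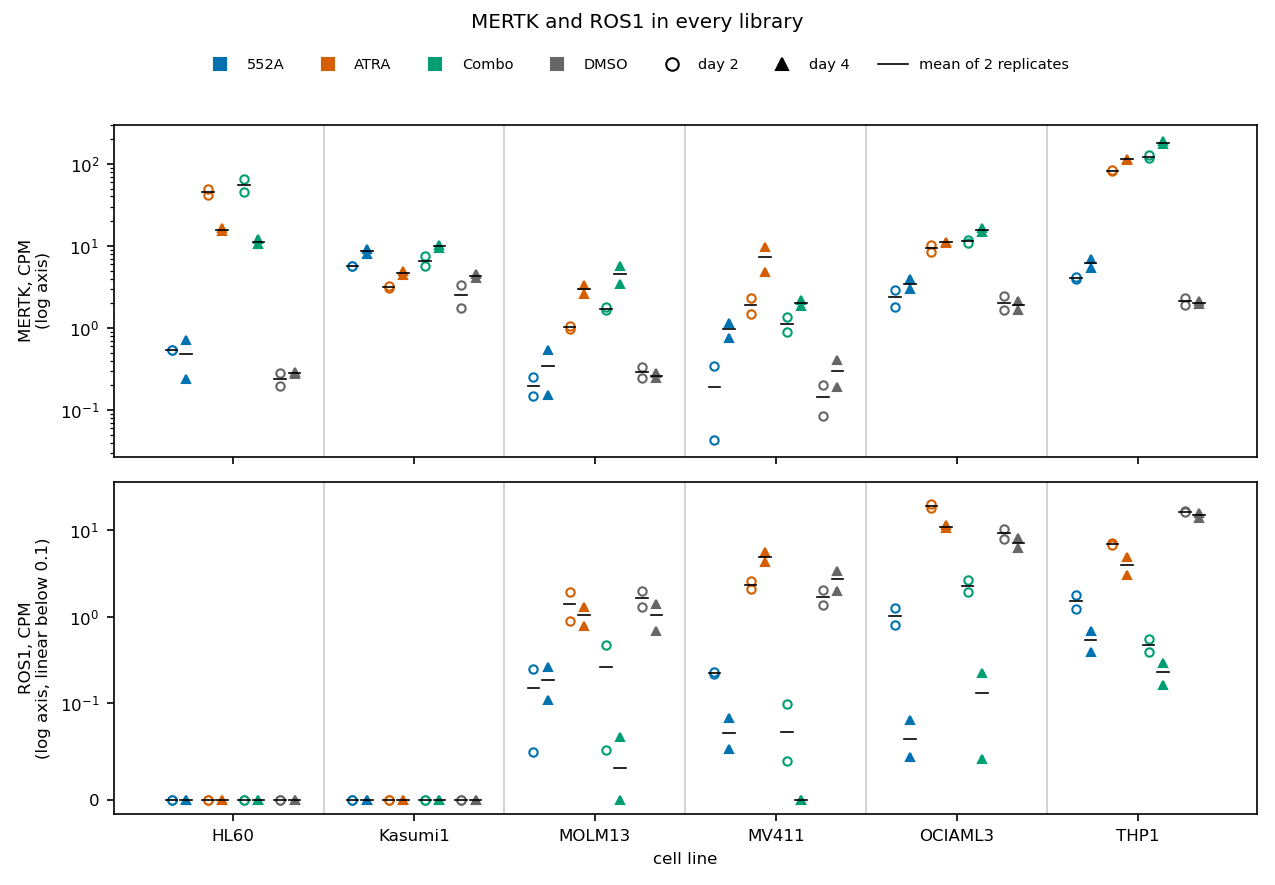
MERTK and ROS1 in CPM (vertical log axis, for ROS1 linear below 0.1) in every library, by line, with 552A, ATRA, Combo and DMSO from left to right. Open circles are day 2, filled triangles day 4 and short lines the mean of 2 replicates. MERTK in THP1 reaches 188 CPM with Combo, against 1.94 and 2.13 CPM with DMSO at day 4, and ROS1 with 552A or Combo lies below the DMSO libraries in each line that has counts.

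Among the cytokine receptor genes, CSF2RB rose in HL60, to 405 and 216 CPM with ATRA and 336 and 245 CPM with Combo at day 4, against 36 and 41.5 CPM with DMSO (2.98 ± 0.34 and 2.89 ± 0.34, adjusted p = 4.26e-05 and 4.84e-05). The treated libraries lay well above DMSO. In MV411 ATRA gave 41.3 and 56.1 CPM, against 25.3 and 18.7 CPM with DMSO (1.15 ± 0.27, adjusted p = 0.00733). That call ended without replicate 2 of ATRA or of DMSO at day 4, and its size was 0.59 with GC and length offsets. In THP1 Combo gave 77.9 and 50.5 CPM, against 36.7 and 38.2 CPM with DMSO (0.73 ± 0.25, adjusted p = 0.0406, ended without Combo replicate 1 or either DMSO library). With 552A, CSF2RB was called in 0 of 6 lines by edgeR (adjusted p 0.420 to 1), with 0 lines at an unadjusted p under 0.05 and 0 called by DESeq2.

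CSF3R separated the lines by direction. With ATRA at day 4, CSF3R rose in HL60 to 221 and 122 CPM, against 51.6 and 47.5 CPM with DMSO (1.76 ± 0.35, adjusted p = 0.00260). In MV411 it fell with ATRA to 8.04 and 12.7 CPM, against 52.1 and 30.4 CPM with DMSO (-1.99 ± 0.36, adjusted p = 0.00127), and with Combo to 4.84 and 2.94 CPM (-3.42 ± 0.38, adjusted p = 3.38e-05, and -3.10 without the library that stood apart). Neither pair of groups in MV411 overlapped. HL60 with Combo had 38.5 and 30.2 CPM at day 4, below ATRA (-2.31 ± 0.36, adjusted p = 0.00778, ended without either Combo library) and not called against DMSO, although Combo had held 217 and 411 CPM at day 2. In THP1, 440 and 305 CPM with ATRA and 437 and 293 CPM with Combo lay above DMSO at 168 and 176 CPM. The ATRA call (1.07 ± 0.32, adjusted p = 0.0450) ended when any of 12 of the 16 libraries was left out, and the Combo call (1.04 ± 0.32, adjusted p = 0.0249) without Combo replicate 1 or either DMSO library. Kasumi1 with Combo had 199 and 347 CPM, against 496 and 561 CPM with DMSO (-0.97 ± 0.27, adjusted p = 0.0388), a call that ended without the library that stood apart (-0.60, adjusted p = 0.178). With 552A, edgeR called CSF3R in 0 of 6 lines, with log2 changes of -1.44 to -0.01, while 3 lines were lower at an unadjusted p under 0.05 and DESeq2 called 1 of them.

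IL6R fell in MV411 with 552A and rose there with ATRA. It had 39.7 and 44.8 CPM with 552A, 213 and 216 CPM with ATRA and 55.8 and 44.4 CPM with Combo at day 4, against 132 and 112 CPM with DMSO. The changes were -1.57 ± 0.18 (adjusted p = 0.000348), 0.81 ± 0.18 (adjusted p = 0.00531) and -1.31 ± 0.18 (adjusted p = 0.000189). Without the library that stood apart, the change with Combo was -1.14 and still called. The falls were called under every alternative, and the rise ended without DMSO replicate 2 of day 4 (adjusted p = 0.0531) and was 0.43 with GC and length offsets. Combo lay below ATRA in MV411 by 2.12 ± 0.19 (log2 -2.12, adjusted p = 1.6e-05), so Combo sat with 552A and not with ATRA. In OCIAML3, Combo lowered IL6R to 241 and 230 CPM, against 405 and 381 CPM with DMSO (-0.78 ± 0.14, adjusted p = 0.00291). Other IL6R changes were called in HL60 with ATRA (0.68, higher), in MOLM13 with ATRA (-0.64) and Combo (-0.71) and in Kasumi1 with ATRA (-1.38), and each ended without at least 3 of the 16 libraries taken singly. The MOLM13 call with ATRA also ended without the filter on low counts (adjusted p = 0.0721) and with GC and length offsets (adjusted p = 0.0553). Among the 552A responses, that of IL6R differed between lines (adjusted p = 6.32e-07).

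EPOR fell in HL60 with ATRA and Combo and in MV411 with Combo. HL60 had 7.18 and 3.74 CPM with ATRA and 8.24 and 5.21 CPM with Combo at day 4, against 17.0 and 17.2 CPM with DMSO (-1.66 ± 0.40 and -1.36 ± 0.40, adjusted p = 0.00795 and 0.0215). With GC and length offsets these were -0.91 and -0.89 and still called. The first call ended without ATRA replicate 2, and the second without Combo replicate 2 or either DMSO library. MV411 had 6.32 and 4.76 CPM with Combo, against 15.9 and 13.3 CPM with DMSO (-1.42 ± 0.26, adjusted p = 0.00158, and -1.22 without the library that stood apart). The EPOR values may hold reads of RGL3, which had 2844 counts in all libraries together, against 25701 for EPOR. The 7 erythroid and megakaryocyte markers summed at day 4 to at most 1.85 CPM with ATRA and 1.18 CPM with Combo, against 2.62 CPM with DMSO; their part in the EPOR values was not tested.

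**Figure D5:**
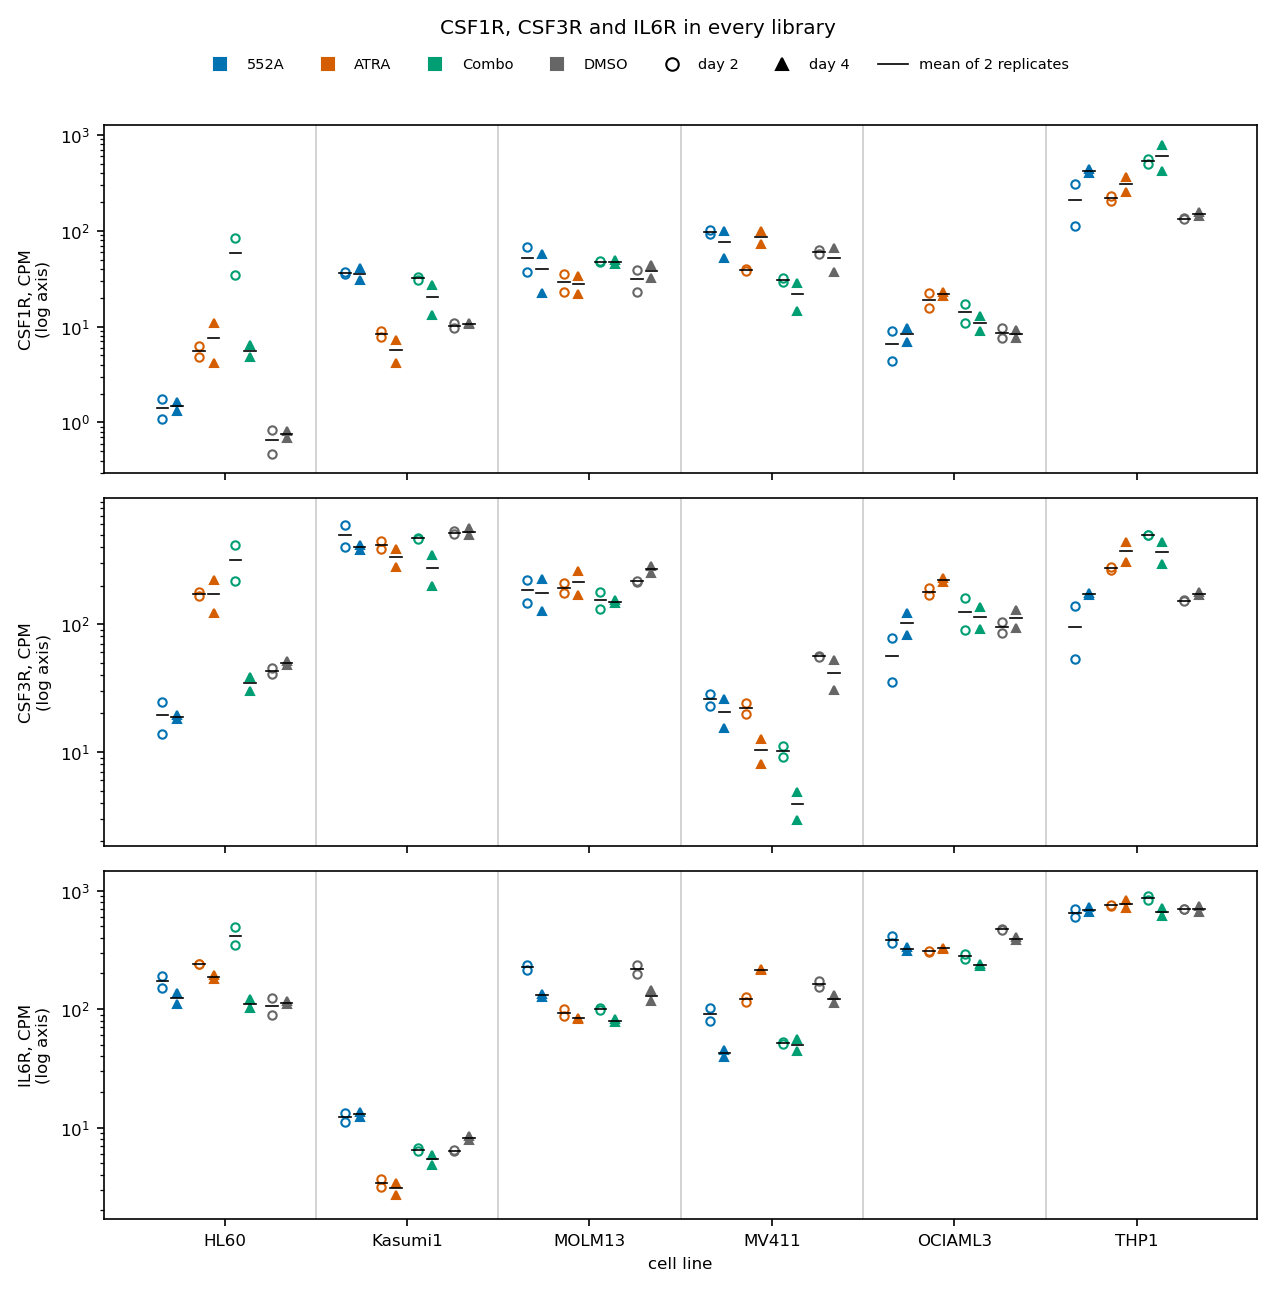
CSF1R, CSF3R and IL6R in CPM (vertical log axes) in every library, by line, with 552A, ATRA, Combo and DMSO from left to right. Open circles are day 2, filled triangles day 4 and short lines the mean of 2 replicates. CSF3R in MV411 falls to 2.94 CPM with Combo at day 4, and the day 2 Combo libraries of HL60 lie above those of day 4 for all 3 genes.

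Set against the single drugs, Combo changed the receptors in both directions at day 4. Against 552A, 14 pairs of member and line were higher and 6 lower, beside 7.73% and 7.01% of all tests. Of these 6 lower pairs, IL6R made 3 and CSF1R, CSF3R and EPOR 1 each. The calls of IL6R in Kasumi1 and MOLM13 and of CSF1R in MV411 ended without the libraries that stood apart (log2 -1.07, -0.66 and -1.43). That of IL6R in OCIAML3 ended without any of 14 of the 16 libraries and with GC and length offsets (-0.20). EPOR in HL60 ended without any of 3 libraries, and CSF3R in MV411 was called throughout. Against ATRA, 4 pairs were higher and 15 lower, beside 4.84% and 3.58% of all tests. Of the 15 lower pairs, ROS1 made 4, KIT 3 and CSF3R 2, and CSF1R, CSF2RB, EPOR, FLT3, IL6R and MERTK 1 each. In MV411 lay 7 of the 15, and there 8.2% of all tests were called lower. The MV411 calls of CSF2RB, CSF3R and MERTK ended without the Combo library that stood apart, and those of CSF2RB and EPOR with GC and length offsets (adjusted p = 0.149 and 0.291). Beyond the sum of the single drugs, 1 pair was higher (KIT in THP1) and 2 lower (CSF1R and MERTK in MV411), beside 0.296% and 0.662% of all tests. At day 2, edgeR called 0 of 52 pairs beyond the sum, beside 0.267% of all tests, while 7 pairs were higher and 2 lower at an unadjusted p under 0.05, and DESeq2 called 3 higher and 0 lower. Combo and the single drugs share the DMSO libraries in that last contrast.

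At day 2, 552A changed 9 pairs, 4 higher and 5 lower, against 2.26% and 0.537% of all tests. ATRA changed 17, 13 higher and 4 lower, against 6.45% and 4.85%. Combo changed 30, 20 higher and 10 lower, against 10.6% and 8.16%. Over the lines, ROS1 was called lower with 552A (1 of 9 members, against 0.741% of all genes) and with Combo (13.4%). MERTK was called higher with Combo (16%), and MERTK and FLT3 with ATRA (5.73%). The 552A call ended without MOLM13, and the ATRA calls without OCIAML3, THP1 and, for FLT3, HL60 or, for MERTK, MV411, each left out singly. The largest change of a member at day 2 was that of MERTK in HL60 with Combo (7.80, adjusted p = 1.31e-07), followed by ATRA in the same line (7.52, adjusted p = 3.38e-07). The size of both rests on few DMSO counts, as the HL60 DMSO libraries held 0.199 to 0.296 CPM of MERTK.

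Around the receptors, the ligand genes had 5 of 11 members tested, in 26 tests of a gene in a line at day 4. With 552A 0 were higher and 5 lower, with ATRA 5 higher and 0 lower, and with Combo 3 higher and 3 lower. Over all tests of these 6 lines the shares higher and lower were 2.7% and 1.01% with 552A, 8.52% and 7.22% with ATRA and 12% and 9.94% with Combo. PROS1, which encodes protein S and is a ligand of MERTK, rose in HL60 with ATRA to 7.91 ± 0.592 CPM, against 0.665 ± 0.104 CPM with DMSO (SD, n = 2, log2 3.52, adjusted p = 1.03e-05), and was higher in 4 of 6 lines with ATRA. With Combo PROS1 was higher in 3 lines and lower in 1, and with 552A it was lower in 3 of 6 lines. In Kasumi1 552A gave 4.55 ± 0.00512 CPM of PROS1, against 10.7 ± 0.0255 CPM with DMSO (SD, n = 2, log2 -1.27, adjusted p = 0.00538). GAS6, the other MERTK ligand, had 45.6 ± 33.0 CPM with Combo in THP1, against 159 ± 12.4 CPM with DMSO (SD, n = 2, log2 -1.85, adjusted p = 0.0367). KITLG, which encodes the KIT ligand stem cell factor, had 12.4 ± 1.94 CPM with Combo in THP1, against 27.7 ± 4.62 CPM with DMSO (SD, n = 2, log2 -1.20, adjusted p = 0.00267). CSF1, the gene of the CSF1R ligand, rose in HL60 with ATRA to 7.69 ± 1.99 CPM, against 0.165 ± 0.0243 CPM with DMSO (SD, n = 2, log2 5.48, adjusted p = 0.00240).

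Other receptors and shared chains had 8 of 10 members tested, in 37 tests. With 552A 1 was higher and 1 lower, with ATRA 7 and 6, and with Combo 10 and 11, against 2.7% and 1.01%, 8.52% and 7.22%, and 12% and 9.94% of all tests. IL6ST, which encodes the gp130 partner of IL6R, rose in HL60 to 73.4 ± 25.6 CPM with ATRA and 104 ± 22.1 CPM with Combo, against 9.78 ± 0.459 CPM with DMSO (SD, n = 2, log2 2.87 and 3.38), and was higher in 4 and 5 of 6 lines. IL7R, the interleukin 7 receptor gene, rose in Kasumi1 to 32.2 ± 6.40 CPM with 552A and 78.7 ± 3.75 CPM with Combo, against 0.239 ± 0.0521 CPM with DMSO (SD, n = 2, log2 6.98 and 8.28). With Combo IL7R was higher in 2 of 6 lines and lower in 4, and with ATRA higher in 1 and lower in 2. In OCIAML3 ATRA gave 1.33 ± 0.0244 CPM of IL7R, against 6.78 ± 0.517 CPM with DMSO (SD, n = 2, log2 -2.36, adjusted p = 0.00477). TYRO3, of the same family as MERTK, fell with Combo in 5 of 6 lines, in THP1 to 1.57 ± 0.627 CPM, against 22.4 ± 2.52 CPM with DMSO (SD, n = 2, log2 -3.85, adjusted p = 1.12e-05). AXL, the third gene of that family, was higher with ATRA in 2 of 4 lines and lower in 1.

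The kinases and adaptors had all 12 members tested, in 71 tests: 5 higher and 0 lower with 552A, 18 and 3 with ATRA and 24 and 6 with Combo. The shares of all tests were 2.7% and 1.01% with 552A, 8.52% and 7.22% with ATRA and 12% and 9.94% with Combo. LYN, a SRC family kinase, rose with Combo in all 6 lines, in THP1 to 666 ± 75.4 CPM, against 102 ± 1.83 CPM with DMSO (SD, n = 2, log2 2.66, adjusted p = 2.18e-07). JAK2, the kinase of several of these receptors, was higher in 4 of 6 lines with Combo, in MOLM13 with 155 ± 9.03 CPM, against 53.4 ± 1.67 CPM with DMSO (SD, n = 2, log2 1.53). GAB2, an adaptor, rose in THP1 with 552A to 112 ± 3.19 CPM, against 40.4 ± 1.53 CPM with DMSO (SD, n = 2, log2 1.46, adjusted p = 0.000107), and fell in HL60 with ATRA (log2 -2.20).

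The inhibitors had all 10 members tested, in 58 tests: 7 higher and 2 lower with 552A, 19 and 5 with ATRA and 20 and 8 with Combo. Of all tests, 2.7% were higher and 1.01% lower with 552A, 8.52% and 7.22% with ATRA and 12% and 9.94% with Combo. DUSP6, a phosphatase of ERK, was higher in 5 of 6 lines with Combo, in THP1 with 547 ± 73.3 CPM, against 35.5 ± 2.82 CPM with DMSO (SD, n = 2, log2 3.91, adjusted p = 6.16e-08). SH2B3, an adaptor that limits JAK2 signalling, was higher in 5 of 6 lines too, in THP1 with 229.7 ± 0.919 CPM, against 53.3 ± 1.35 CPM with DMSO (SD, n = 2, log2 2.07). SPRED1, an inhibitor of RAS, rose in THP1 with 552A to 7.54 ± 0.337 CPM, against 0.278 ± 0.106 CPM with DMSO (SD, n = 2, log2 4.75). SOCS2, a STAT5 target that limits cytokine signals, rose in Kasumi1 with 552A to 94.6 ± 0.762 CPM, against 45.0 ± 0.678 CPM with DMSO (SD, n = 2, log2 1.03), and was lower in 2 other lines.

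The genes of STAT5 and MAPK output, 8 in all and all tested, in 48 tests, gave 0 higher and 1 lower with 552A, 13 and 4 with ATRA and 12 and 7 with Combo, beside 2.7% and 1.01%, 8.52% and 7.22%, and 12% and 9.94% of all tests. PIM1, a kinase gene induced by STAT5, rose in MV411 with ATRA to 1105 ± 111 CPM, against 142 ± 0.764 CPM with DMSO (SD, n = 2, log2 2.96, adjusted p = 7.52e-07). OSM, the gene of oncostatin M and a STAT5 target, fell with ATRA and with Combo in 3 of 6 lines, in MOLM13 with ATRA to 0.607 ± 0.303 CPM, against 11.4 ± 0.944 CPM with DMSO (SD, n = 2, log2 -4.24). Over the lines, the list medians at day 4 ran from -0.41 to 0.14 with 552A, -0.21 to 0.73 with ATRA and -0.65 to 0.77 with Combo. The lists are described by these counts and medians, and no test of a list was made.

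The members were compared over the 48 group means, on log2(CPM + 1) centred within each line. These correlations are descriptions, because groups of a line share controls and libraries differ in depth and GC trend. FLT3 and MERTK moved most alike (r = 0.713), then CSF1R and MERTK (0.634) and CSF1R and CSF3R (0.625), while KIT and EPOR went opposite ways (-0.655). Of 12628 protein-coding genes, those most like KIT were SIRPB1 (0.825), NCOR1 (0.792), ZNF224 (0.789) and INPP1 (0.787). Those most like FLT3 were FIG4 (0.877), IST1 (0.862), EPAS1 (0.858) and VPS41 (0.857). Those most like CSF1R were ARHGAP30 (0.874), SIGLEC15 (0.815), IQSEC2 (0.797) and EXTL3 (0.795). Those most like MERTK were NCOA3 (0.935), CASP9 (0.928), DOCK5 (0.927) and PLCB2 (0.921).

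Markers of mature myeloid cells were measured in the same libraries. The summed level of 7 monocyte and macrophage markers at day 4 was 49.6 to 504 CPM over the lines with 552A, 13.9 to 751 CPM with ATRA and 54.0 to 971 CPM with Combo, against 24.3 to 132 CPM with DMSO. The genes behind the sum differed by line. Over the HL60 groups of both days, ITGAM reached 808 CPM, CD86 343 CPM and FCGR1A 22.2 CPM. CD14, CD163, MRC1 and CD68 stayed at or under 0.632 CPM there. CD14 reached 404 CPM in THP1, and CD163 196 CPM in OCIAML3. The 5 neutrophil markers summed to 7.75 to 52.1 CPM with 552A, 6.68 to 61.0 CPM with ATRA and 7.08 to 117 CPM with Combo, against 4.18 to 33.4 CPM with DMSO. These sums came almost wholly from CXCR2 and MMP9. FCGR3B, CEACAM8 and LTF stayed at or under 0.403, 0.792 and 0.161 CPM in every group. Each of the ranges of the sums over the lines overlapped that with DMSO, which does not describe the change within a line. Neither a difference in the summed levels nor their part in the receptor changes was tested. The 6 mast cell and basophil markers, cells that also carry KIT, summed to at most 8.13 CPM with 552A, 1.15 CPM with ATRA and 3.32 CPM with Combo, against 7.06 CPM with DMSO. Among them TPSB2 reached 7.10 CPM in MOLM13 and MS4A2 4.41 CPM in OCIAML3. FCER1A, HDC and TPSAB1 stayed at or under 1.28, 0.788 and 0.391 CPM in every group. CPA3, the mast cell carboxypeptidase gene, stayed at or under 0.0889 CPM.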

How the data were processed

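RNA from 6 AML lines was sequenced from TruSeq Stranded Total RNA libraries, per the labels' protocols. The authors deposited 1 table of raw read counts, whole numbers for each gene and library, made with Trimmomatic 0.36, STAR 2.4.2a and HTSeq 0.6.0 on GRCh38, per the submitters' processing notes. The sources used here name neither the annotation release nor the strand setting. Identifiers of 56994 of 60552 rows matched GENCODE 29, and the 3508 unmatched rows held 0.0417% of the counts. Replicates differed beyond sampling noise (smallest chi-square per degree of freedom 8.91).

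Counts were tested in R 4.3.3 with edgeR 4.0.16 (quasi-likelihood F test, TMM, filterByExpr), with Benjamini-Hochberg adjustment over all genes and a call at an adjusted p under 0.05. The test was tried on simulated data with 200 changed genes. All genes had the same spread there, only well-counted genes were changed, and no library had a GC trend. It thus does not cover changes at low counts or in libraries that stood apart. Each line was 1 fit of 16 libraries in 8 groups (8 residual degrees of freedom). Across lines, replicates were summed and line was a block (15 residual degrees of freedom). Differences between lines were F tests on the day 4 libraries, 48 in number. Standard errors (SE) were computed as the log2 change divided by the square root of F. CPM uses TMM over all 96 libraries, and RPKM divides it by exon length. The text names all 10 members, for each list and treatment up to 3 genes with the smallest p within a line, and the 4 genes most like KIT, FLT3, CSF1R and MERTK with a mean of at least 1 CPM. Alternatives were DESeq2 1.42.0, RLE and upper quartile normalisation, no filter, GC and length offsets, a replicate block, leaving out the 5 libraries that stood apart, and leaving out each library or line. Members and lists were chosen with earlier results of these data known.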

Additional observations from a re-analysis of the deposited data

Results flagged for a closer look

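Of 27 tests of whether the response of a receptor at day 4 differed between the 6 lines (edgeR's quasi-likelihood F test, adjusted over all genes), 20 were called. With 552A these were KIT (adjusted p = 4.61e-07), IL6R (6.32e-07) and FLT3 (0.00756). With ATRA all 9 tested genes were called: MERTK (9.22e-10), KIT (3.4e-09), IL6R (7e-09), FLT3 (9.52e-08), CSF2RB (3.06e-06), CSF3R (3.32e-06), CSF1R (0.000293), ROS1 (0.00977) and EPOR (0.0294). With Combo the same test called KIT (1.59e-11), MERTK (7.3e-09), CSF2RB (5.61e-07), CSF3R (1.8e-06), IL6R (7.8e-05), FLT3 (8.76e-05), CSF1R (0.000231) and EPOR (0.0276). The tests called 5.69, 31.4 and 33.6% of all genes with 552A, ATRA and Combo, so a call among the ATRA and Combo responses is common.

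In 52 groups of 4 DMSO libraries, 1 held a library far from the others: KIT in OCIAML3, where the highest library had 0.136 CPM and the other 3 had 0. That library held 6 counts. Chance flags about 1 in 20 such groups.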

How the results depend on the processing

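No result that was called changed its direction under any alternative run. Of the 236 called results recomputed, DESeq2 ended 0, RLE normalisation 1, upper quartile normalisation 7, no filter on low counts 7 and GC and length offsets 6. Leaving out the 5 libraries that stood apart ended 15 of 192, and leaving out each library or line in turn ended 97 of 216 at least once. With GC and length offsets, 552A had 7 higher and 12 lower pairs of member and line at day 4 (4 and 7 without), while 11.3% of all tests were called (3.71% without), and 7 and 13 at day 2 (4 and 5 without), and 11 and 10 lower pairs at days 4 and 2 without the filter on low counts. Combo over 552A at day 4 then had 22 higher pairs (14 without), and Combo over ATRA 8 higher pairs, or 7 without the 5 libraries (4 in the fit described above). Beyond the sum of the single drugs at day 4, the offsets gave 2 higher and 6 lower pairs (1 and 2 without), upper quartile normalisation and no filter 0 higher, and leaving out the 5 libraries 1 lower. ATRA at day 2 had 20 higher pairs without the 5 libraries (13 with them). Across lines, ATRA at day 2 gave 1 member with the offsets (2 without), and Combo at day 4 gave 4 members with DESeq2 (2 with edgeR). The response to 552A differed between lines for 6 members without the filter and 5 with the offsets (3 in the fit described above). The shares of all tests called moved too. With the offsets they were 8.1% for 552A at day 2 (2.8% without). For Combo at day 4 they were 26.9% over 552A, 18.4% over ATRA and 3.66% beyond the sum (14.7%, 8.42% and 0.959% without). Without the filter they were 2.85% and 3.38% for 552A at days 4 and 2. The cause of these changes was not tested. With 1 library left out, 552A at day 2 had 1 to 4 higher and 3 to 10 lower pairs, Combo over ATRA at day 4 had 2 to 6 higher pairs, and Combo beyond the sum had 0 to 1 higher and 0 to 3 lower pairs. A library left alone in its group is assumed to vary like the other groups. With 1 line left out, the members called across lines were 0 to 1 for 552A at days 2 and 4, 0 to 2 for ATRA at day 2 and 1 to 2 for ATRA at day 4. The differences between lines were not recomputed with a library left out. Whether replicate numbers paired the samples cannot be told from the counts, and the fit described above used no pairing. Same-numbered libraries deviated together in 12 to 16 of 28 pairs of groups per line (r over 0.1) and in opposite directions in others. The median r of a line was 0.062 to 0.131, and GC trends of single libraries also enter it. A replicate block ended 1 of 222 calls and added 19. The replicate block with GC and length offsets gave 9 higher and 15 lower pairs for 552A at day 4 and 8 and 14 at day 2, 20 higher and 7 lower for ATRA at day 2 and 16 lower for Combo at day 2. It also gave 22 higher for Combo over 552A, 10 higher for Combo over ATRA, 2 higher and 6 lower beyond the sum, and 6 members whose response to 552A differed between lines. With this setting 14.6% and 11.3% of all tests were called for 552A at days 4 and 2, and 25.4% for ATRA and 37.8% for Combo at day 2. For Combo at day 4 the shares were 30.6% over 552A, 22.4% over ATRA and 5.23% beyond the sum. Depth limits KIT in OCIAML3 and ROS1 after 552A or Combo, where a pair of libraries held few counts or none. It also limits the size of the MERTK rises in HL60, MOLM13 and MV411. Their DMSO libraries held 0.0862 to 0.406 CPM of MERTK, which is few counts.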
